A study of Caenorhabditis elegans with 6 samples.

Results

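Fatty acids enter breakdown as coenzyme A thioesters, and the genes described here encode the enzymes that make those thioesters and shorten them. They were selected by gene symbol, with earlier results of these data known: the acyl-CoA synthetases (acs), the carnitine palmitoyltransferases (cpt), the acyl-CoA dehydrogenases (acdh), the acyl-CoA oxidases (acox), the enoyl-CoA hydratase family (ech) and the peroxisomal enzymes maoc-1, dhs-28 and daf-22. Of 18124 genes named on the array, 57 carried such a symbol, and they had 61 of the 20401 gene probes. The reference table held 60 such symbols, and acdh-7, acox-1.4 and acs-23, the last a pseudogene, had no probe. Worms of Caenorhabditis elegans carrying the mir-243 deletion allele n4759 were compared with worms of the wild-type Bristol strain N2, both grown at 20 °C and both labelled young adults. RNA of whole worms was hybridised in 3 biological replicates, each on 2 Agilent arrays with the dyes exchanged, so that n was 3 ratios of mutant over wild type from 6 arrays. The study asked which transcripts change, by a direct or an indirect route, when the microRNA miR-243 is missing.

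For breakdown in the mitochondrion, a fatty acid is first joined to coenzyme A by a synthetase. It is then passed across the inner membrane as a carnitine ester and shortened in rounds of dehydrogenation, hydration, a second oxidation and thiolysis. Peroxisomes run a parallel cycle that starts with an oxidase in place of the dehydrogenase, and in C. elegans this cycle trims the side chains of the ascaroside pheromones. The intestine is the main site of fat storage and breakdown in the worm, and several of the acyl-CoA enzymes serve other ends, among them the breakdown of branched-chain amino acids and propionate and the building of the cuticle barrier.

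Among the tested genes of these families, 10 were higher in mir-243 mutant worms by at least 2-fold and 0 were lower by that much. Under other processing at the same fold, 8 to 13 probes were called higher and 0 to 2 lower, the lower ones being acdh-13 or acs-13, and acdh-13 was also called without replicate 1 (-1.02). Among the 10 higher genes were the dehydrogenases acdh-6 and acdh-2 and the synthetases acs-20, acs-2, acs-16, acs-3 and acs-17. The others were the carnitine palmitoyltransferases cpt-4 and cpt-6, and the hydratase ech-6. A gene was called changed when the fold was at least 2 and the adjusted p in limma, with Benjamini-Hochberg adjustment over all 16272 tested probes, was under 0.05. By that rule 2647 probes (16.3% of those tested) were called in all, 1480 (9.10%) higher and 1167 (7.17%) lower in the mutant. Higher calls were thus 55.9% of all calls, but 48.0% when arrays were centred on their median and 48.6% from the deposited ratios, and lower calls also outnumbered higher ones with processed signals. The 10 called genes were 19.2% of the 52 tested, and all of them lay on the higher side. With the deposited ratios, 13 of 58 tested probes of these families were called, beside 4518 of all 16812. With processed signals it was 11 of 52, beside 4342 of all 16272. In both of these settings the share called in the families, both directions together, was below that of all tested probes. Without the fold, 41 of the 52 had an adjusted p under 0.05, which is 78.8% against 83.6% of all tested probes. Of these, 28 were higher (53.8%, against 42.2% of all tested probes) and 13 were lower (25.0%, against 41.3%). At an unadjusted p under 0.05 in limma, these same 13 were lower and 29 were higher. The median log2 ratio of the 52 genes was 0.22, with 0.16, 0.19 and 0.21 in replicates 1, 2 and 3 (SD 0.0221 between replicate medians), and the median of all tested probes was -0.01. With median centring the median of the 52 genes was 0.10. The 52 ratios ran between -0.96 and 3.27.

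**Figure D1:**
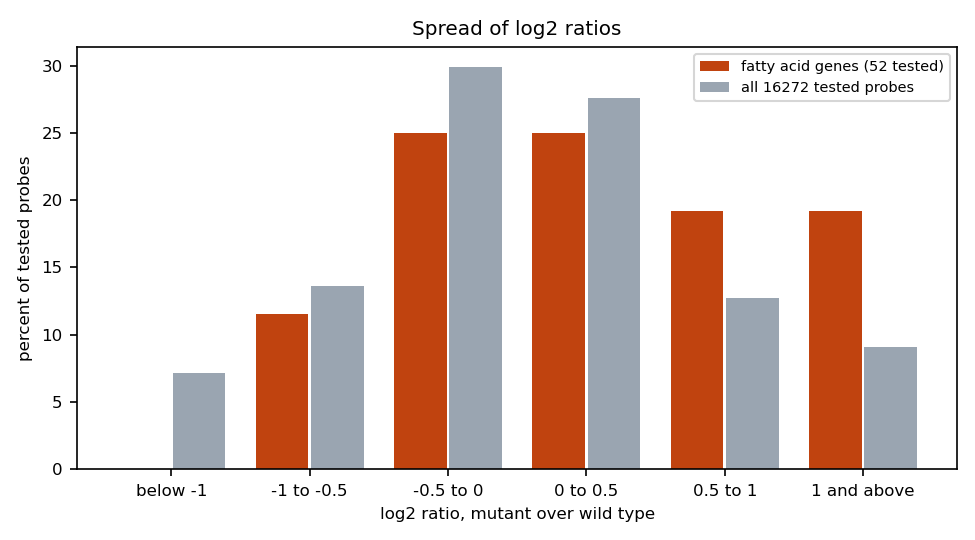
Share of tested probes (vertical axis, percent) in each range of the log2 ratio of mutant over wild type (horizontal axis), for the 52 fatty acid genes (left bars) and all 16272 tested probes (right bars). The fatty acid genes held 19.2% of their ratios at 1 or above against 9.10% of all probes, and 0 of 52 lay below -1 against 7.17% of all probes, a count of 0 to 2 under other processing.

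The acs, cpt, acdh, acox and ech families each contained ratios above and below 0, while maoc-1, dhs-28 and daf-22 were all above it. The median log2 ratio was 0.54 for the 10 tested acdh genes (SD 0.0673 between replicate medians), 0.51 for the 6 cpt genes (SD 0.0546) and 0.39 for the 19 tested acs genes (SD 0.0259). It was 0.43 for maoc-1, dhs-28 and daf-22 (SD 0.0619), -0.14 for the 8 ech genes (SD 0.0924) and -0.18 for the 6 acox genes (SD 0.129). These medians are descriptions and were not tested against each other. The 3 mutant and 3 wild-type levels of a gene did not overlap for 36 of the 52 tested genes, and the same was true of 71.0% of all tested probes. Since RNA came from whole worms, fewer cells of a type and less RNA per cell cannot be told apart in any ratio given here.

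**Figure D2:**
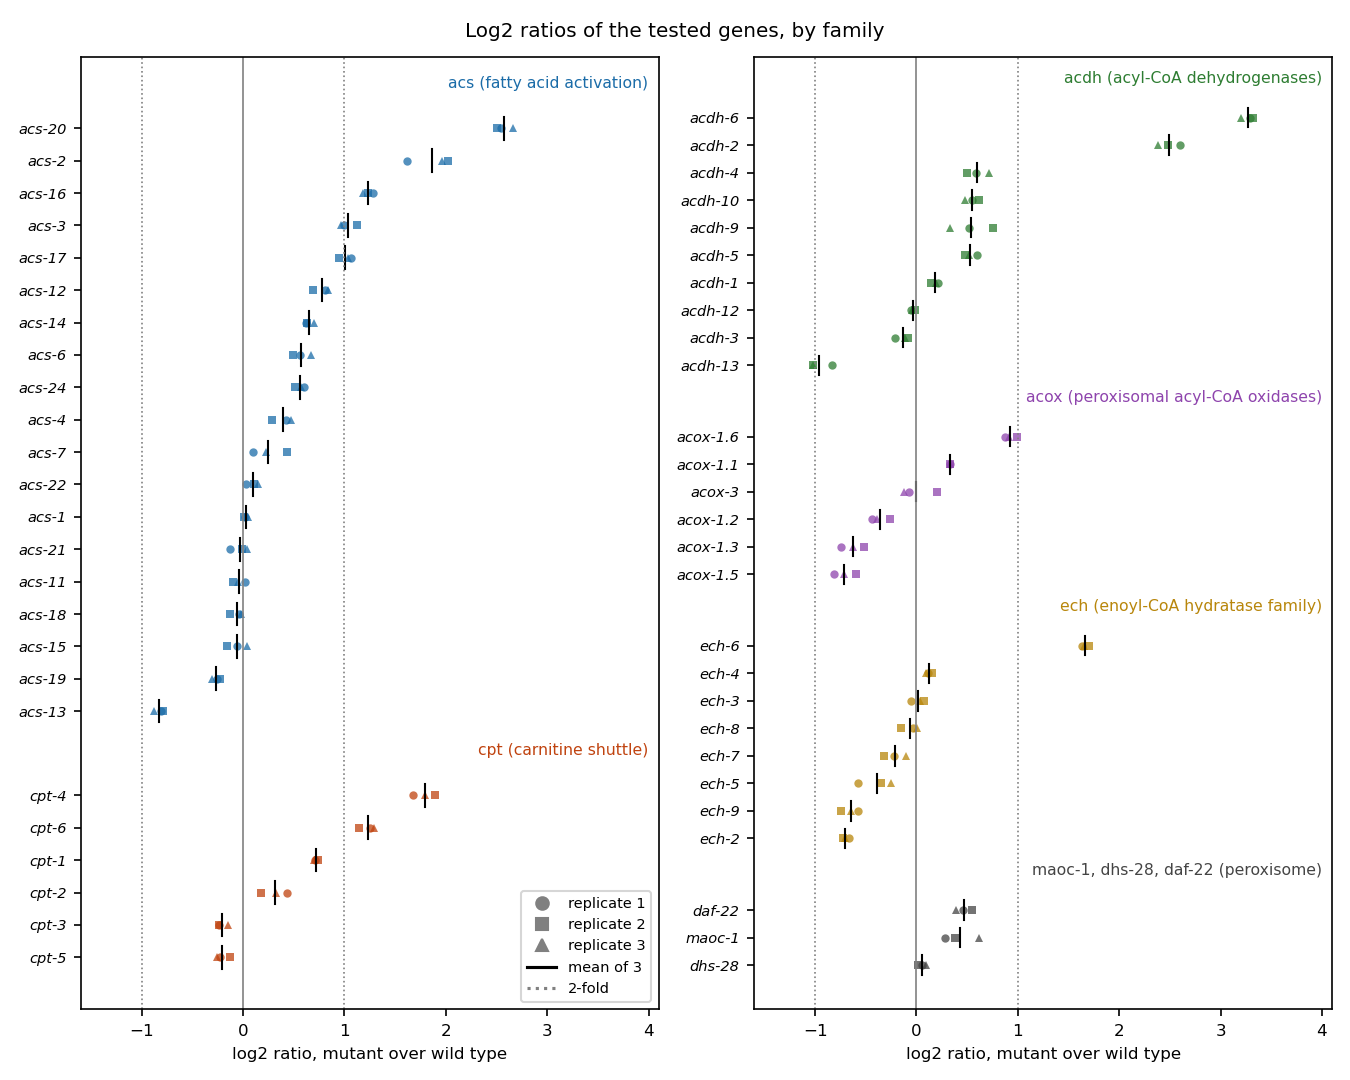
Log2 ratio of mutant over wild type (horizontal axis) of each tested gene (1 line per gene), with the 3 replicates as symbols, their mean as a black bar and 2-fold as dotted lines. The 10 called genes stand to the right of the 2-fold line, led by acdh-6 at 3.27, and acdh-13 at -0.96 is the lowest.

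The arrays were of even quality. Per array, the median spot intensity was 237 to 318 in Cy3 (local background 59 to 64) and 370 to 647 in Cy5 (133 to 136.5). Pearson's r between replicates over all tested probes, which are not independent, was 0.987 to 0.990. The reference table places mir-243 within R08C7.12, which was lower in the mutant by less than 2-fold (log2 ratio -0.72 ± 0.0138, SD, n = 3). Y47H10A.5 is the target locus of miR-243 in the study, which reported it as upregulated on these same arrays. Here the Y47H10A.5 probe was called higher (1.07 ± 0.127). These values cannot decide the genotype, since 83.6% of all tested probes had a limma adjusted p under 0.05 and 9.10% were called higher. Both groups carried the label young adult, but marker lists of stage and tissue differed between them. All 5 tested yolk protein probes were lower in the mutant, with summed levels of 8640 to 9560 in the mutant and 95100 to 111000 in the wild type. Of 7 tested germ line probes, 4 were called lower, with sums of 56000 to 58500 in the mutant and 142000 to 158000 in the wild type. The spe-9 probe of that list was higher by less than 2-fold (0.57 ± 0.169), and the remaining 6 tested probes were lower. Of 9 hypodermis probes, dpy-7, mlt-10 and noah-1 were called higher and the adult collagen col-19 lower, with sums of 64300 to 65800 in the mutant and 45000 to 54300 in the wild type. Of 10 tested intestine probes, pgp-1 was called higher and ges-1 lower, the median log2 ratio was 0.20, and the sums were 82300 to 91200 in the mutant and 75400 to 86200 in the wild type. An intestine probe left untested by outlier marks, that of cpr-1, read 5310 and 6400 in mutant replicates 2 and 3 and 21600 and 25000 in the wild type. With it, the sums of replicates 2 and 3 were 96400 and 88700 in the mutant and 104000 and 100000 in the wild type, so the direction of the intestine sum turned. Every probe of these lists was well above background on some arrays in both genotypes, so none of the defining markers was at 0. The part of these differences in the results below was not tested.

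The acyl-CoA synthetases activate fatty acids, and different members take different substrates. The largest difference among the 19 tested was that of acs-20, a fatty acid transport protein homologue that is needed for the barrier of the cuticle surface. Its normalised level was 4210, 4070 and 4010 intensity units in mutant replicates 1, 2 and 3 and 724, 718 and 636 in the wild-type replicates. The groups were far apart and the 3 mutant levels were close to each other. This gave a log2 ratio of 2.57 ± 0.0814 (SD, n = 3) and a fold of 5.93 (limma adjusted p 1.50e-14), and 1.16% of tested probes were at least as high. Its paralogue acs-22, which shares the barrier function, was measured at 1950, 1990 and 1960 in the mutant and 1910, 1850 and 1770 in the wild type. That is a log2 ratio of 0.10 ± 0.0568 with an adjusted p of 0.0551. The ratio of acs-20 exceeded that of acs-22 by 2.51, 2.39 and 2.51 log2 units in the 3 replicates. Among the hypodermis markers given above, several of them cuticle genes, dpy-7, mlt-10 and noah-1 were called higher and col-19 lower. The rest of that list was not called, and the part of these markers in the acs-20 difference was not tested.

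The gene acs-2 encodes a mitochondrial synthetase that is induced by fasting through the nuclear receptor NHR-49. Its level was 4000, 8490 and 7320 in mutant worms and 1300, 2100 and 1890 in wild-type worms. Replicate 1 was the lowest in both genotypes, and the groups did not overlap. The log2 ratio was 1.86 ± 0.215, a fold of 3.64 (adjusted p 8.96e-12), and its SD was the largest of the 52 tested genes. Ratios of 1.62, 2.02 and 1.96 put replicate 1 below the other replicates.

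The other called synthetases were higher by smaller amounts. The level of acs-16 was 1660, 1540 and 1610 in the mutant and 684, 653 and 708 in the wild type, a log2 ratio of 1.23 ± 0.0505 (adjusted p 1.08e-11). That of acs-3, a synthetase of the hypodermal seam cells whose loss increases fat uptake, was 449, 445 and 405 in the mutant and 225, 205 and 206 in the wild type, a log2 ratio of 1.03 ± 0.0781 (adjusted p 9.96e-11). That of acs-17 was 9850, 11700 and 10600 in the mutant and 4740, 6060 and 5190 in the wild type, a log2 ratio of 1.01 ± 0.0539 (adjusted p 7.63e-11). None of these groups overlapped, but some calls depended on the processing. The call of acs-17 was lost in 6 settings, at 0.76 with median centring, 0.95 with the deposited ratios and 0.99 without replicate 1. That of acs-3 was lost in 4, at 0.84 with the mutant in Cy3 alone, 0.86 with no background subtraction and 0.98 without replicate 2, and acs-16 was at 0.98 with the mutant in Cy5 alone.

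Of the 14 tested acs genes that were not called, 6 were higher with an adjusted p under 0.05, namely acs-12, acs-14, acs-6, acs-24, acs-4 and acs-7, with log2 ratios of 0.25 to 0.78. The highest, acs-12, was measured at 1950, 1760 and 1940 in the mutant and 1110, 1090 and 1080 in the wild type. The lowest of them, acs-7, encodes a peroxisomal synthetase that activates ascaroside side chains. It was at 0.25 ± 0.168 (adjusted p 1.02e-03). Lower in the mutant were acs-13 and acs-19. The level of acs-13 was 1600, 1760 and 1610 in the mutant and 2800, 3040 and 2970 in the wild type, with no overlap and a log2 ratio of -0.83 ± 0.0484 (adjusted p 5.66e-10). It passed 2-fold, at -1.11, when arrays were centred on their median instead of by loess. The acetyl-CoA synthetase gene acs-19 was at -0.27 ± 0.0425 (adjusted p 6.18e-05). The remaining 6, acs-1, acs-11, acs-15, acs-18, acs-21 and acs-22, had ratios of -0.06 to 0.10 and an adjusted p above 0.05. Among these acs-1, which activates the monomethyl branched-chain fatty acids that worms need for growth, was at 0.03 ± 0.0177 (adjusted p 0.565). The probes of acs-15 and acs-18 were dim, with levels of 105 to 129 and 126 to 166, so low signal limits their ratios.

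**Figure D3:**
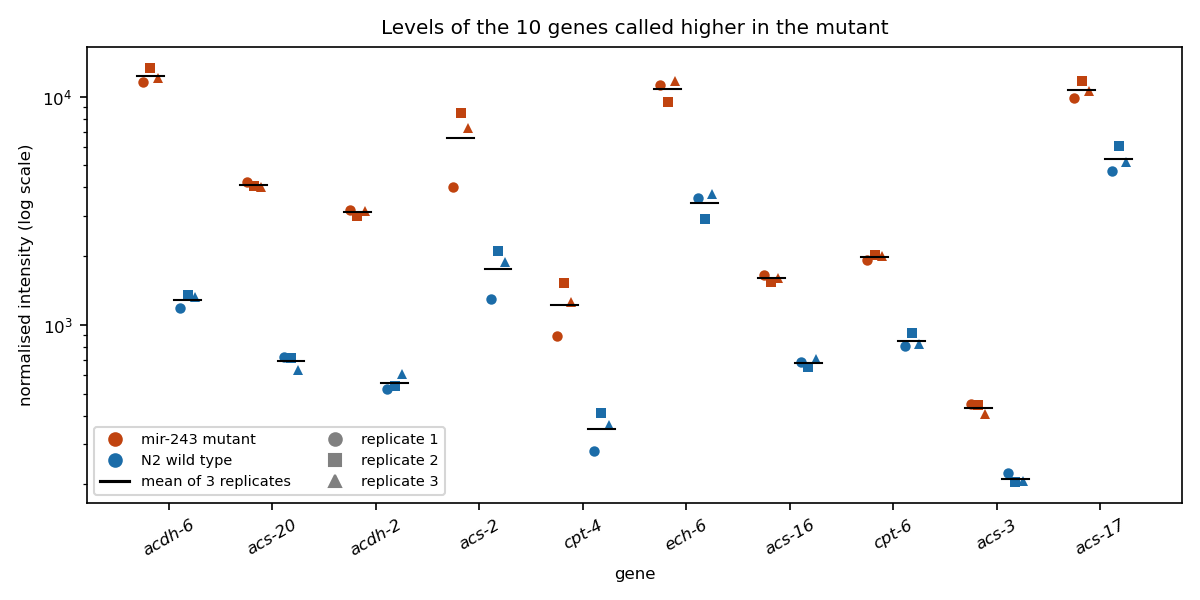
Normalised intensity (vertical log axis) of the 10 genes called higher, in the mutant (left symbols of each gene) and the wild type (right symbols), with 3 replicates each and their mean as a bar. In every gene the lowest mutant level lies above the highest wild-type level, and levels did not overlap for 71.0% of all tested probes either. For acs-2 and cpt-4, replicate 1 lies below the other replicates in both genotypes.

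The carnitine palmitoyltransferases carry activated fatty acids into the mitochondrion. All 6 genes had an adjusted p under 0.05, as did 83.6% of all tested probes, 4 of them higher and 2 lower. For cpt-2 and cpt-5 this did not hold in every setting: cpt-2 was at 0.11 with median centring (adjusted p 0.122) and cpt-5 at -0.077 with the mutant in Cy5 alone (adjusted p 0.323). The level of cpt-4 was 890, 1530 and 1260 in the mutant and 279, 411 and 364 in the wild type. It varied among replicates as acs-2 did, with replicate 1 lowest in both genotypes, while the groups stayed apart. The log2 ratio was 1.79 ± 0.110, a fold of 3.45 (adjusted p 8.26e-13). The level of cpt-6 was 1930, 2030 and 2010 in the mutant and 809, 923 and 825 in the wild type, with a log2 ratio of 1.23 ± 0.0785 and a fold of 2.34 (adjusted p 1.82e-11).

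The genes of the outer-membrane and inner-membrane transferases were higher by less than 2-fold. The level of cpt-1, homologous to mammalian CPT1, was 16400, 16000 and 15200 in the mutant and 10000, 9600 and 9320 in the wild type, a log2 ratio of 0.72 ± 0.0204 (adjusted p 1.87e-09). That of cpt-2, homologous to CPT2, was 13900, 15100 and 10900 in the mutant and 10300, 13400 and 8730 in the wild type, a ratio of 0.31 ± 0.126 (adjusted p 7.86e-05). The levels of cpt-1 did not overlap, while those of cpt-2 did. Lower in the mutant were cpt-3, at 38200, 38800 and 40500 in the mutant and 45000, 45900 and 45100 in the wild type (-0.21 ± 0.0489, adjusted p 5.18e-04), and cpt-5. The level of cpt-5 was 2890, 1980 and 2690 in the mutant and 3380, 2160 and 3230 in the wild type, with overlap and a ratio of -0.21 ± 0.0689 (adjusted p 7.64e-04).

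The acyl-CoA dehydrogenases take the first oxidation step in mitochondria. The largest ratio of all the genes described here was that of acdh-6. Its level was 11600, 13400 and 12100 in the mutant and 1180, 1350 and 1320 in the wild type. The groups were far apart in each replicate. The log2 ratio was 3.27 ± 0.0635, a fold of 9.65 (adjusted p 2.20e-15), and 0.332% of tested probes were at least as high. With median centring it was 2.95, the lowest of its values under any alternative.

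The genes acdh-1 and acdh-2 encode short-chain dehydrogenases of close sequence. The enzyme of acdh-1 starts the propionate shunt, a route for breaking down propionate that worms use when vitamin B12 is scarce, and its promoter is a common reporter of diet. The tested probe of acdh-2 had levels of 3200, 2990 and 3160 in the mutant and 526, 538 and 606 in the wild type, with a log2 ratio of 2.49 ± 0.110 and a fold of 5.61 (adjusted p 3.53e-14). Its other probe lost replicate values to outlier marks, and with such spots kept it was at 2.76 ± 0.0656 (adjusted p 6.30e-14). Both probes of acdh-2 therefore gave ratios of similar size.

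The 2 probes of acdh-1, which the files assign to the same transcript, were both higher in the mutant but differed widely in size. The probe that was tested was dim, with 112, 101 and 107 in the mutant and 96.3, 91.4 and 94.4 in the wild type. Those levels did not overlap, but the wild type was well above background on 3 of 6 arrays, and the log2 ratio was 0.18 ± 0.0380 (adjusted p 1.53e-03). Its size depended on the processing, at 0.82 with the deposited ratios, 0.78 with processed signals and 0.11 with no background subtraction. The other probe was bright and had a valid value in replicate 3 alone, where it read 2570 in the mutant and 268 in the wild type, a log2 ratio of 3.26. Of its 12 spots over the 6 arrays, 7 carried an outlier mark, each of the 7 for uneven pixels within the spot. With such spots kept, its ratios were 3.24, 2.95 and 3.26 (mean 3.15 ± 0.174, adjusted p 2.01e-13). Which probe follows the acdh-1 transcript was not tested, and probe sequences were not used here, so hybridisation between acdh-1 and acdh-2 could not be checked.

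The other dehydrogenases differed by less than 2-fold. Higher were acdh-4 (0.60 ± 0.113), acdh-10 (0.55 ± 0.0738), acdh-9 (0.54 ± 0.212) and acdh-5 (0.53 ± 0.0600), with adjusted p of 3.32e-06 or below. The gene acdh-10 encodes a homologue of the mammalian medium-chain dehydrogenase and was measured at 44000, 44100 and 41800 in the mutant and 30000, 28600 and 30000 in the wild type. The lowest ratio of all the genes described was that of acdh-13, at 461, 346 and 401 in the mutant and 821, 701 and 812 in the wild type. Its groups did not overlap, and its log2 ratio of -0.96 ± 0.107 (adjusted p 3.99e-10) lay just inside 2-fold. The gene was called lower without replicate 1 (-1.02), with an offset of 16 (-1.01), with the mutant in Cy5 alone (-1.12), and with the deposited ratios or processed signals (-1.16 each). The ratio of acdh-3 was -0.13 ± 0.0714 (adjusted p 0.0152). That of acdh-12, homologous to the very long-chain dehydrogenase, was -0.03 ± 0.0174 (adjusted p 0.476), with levels of 10200, 10700 and 10000 in the mutant and 10500, 10800 and 10300 in the wild type.

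Enoyl-CoA hydratases add water to the double bond made by the dehydrogenase or oxidase. The 8 ech genes were grouped by symbol, and whether each encodes a hydratase was not examined. Of these 8 genes, ech-6 was called. It encodes the mitochondrial short-chain hydratase and acts next after acdh-1 in the propionate shunt. Its level was 11200, 9500 and 11700 in the mutant and 3610, 2910 and 3760 in the wild type, with no overlap and the same order of replicates in both genotypes. The log2 ratio was 1.66 ± 0.0399, a fold of 3.16 (adjusted p 4.72e-13).

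The rest of the family lay at or below 0.12. Lower in the mutant without overlap were ech-2 and ech-9. The level of ech-2 was 574, 604 and 594 in the mutant and 915, 994 and 964 in the wild type (log2 ratio -0.70 ± 0.0232, adjusted p 2.57e-09). That of ech-9 was 182, 196 and 178 in the mutant and 271, 327 and 279 in the wild type (-0.65 ± 0.0804, adjusted p 1.17e-08). The gene ech-8 carries the clone number next to that of ech-9 and was measured at 1560, 1440 and 1670 in the mutant and 1600, 1590 and 1670 in the wild type (-0.06 ± 0.0813, adjusted p 0.246). The ratio of ech-9 minus that of ech-8 was -0.54, -0.59 and -0.65 log2 units in the 3 replicates. The levels of ech-5 overlapped, with 273, 338 and 280 in the mutant and 408, 432 and 333 in the wild type (-0.39 ± 0.171, adjusted p 2.42e-05). So did those of ech-7, with 1700, 1330 and 1660 in the mutant and 1980, 1650 and 1790 in the wild type (-0.21 ± 0.107, adjusted p 1.19e-03). The levels of ech-4 were 15100, 13500 and 13500 in the mutant and 14000, 12100 and 12700 in the wild type (0.12 ± 0.0298, adjusted p 0.0193). Those of ech-3, a dim probe, were 118, 124 and 110 in the mutant and 122, 118 and 106 in the wild type (0.02 ± 0.0649, adjusted p 0.685). The signs of ech-3, ech-4 and ech-8 turned under other processing.

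The peroxisomal acyl-CoA oxidases take the first oxidation step on long side chains, ascarosides included, and none of the 6 was called. The family was split. Higher in the mutant were acox-1.6, at 2310, 2390 and 2410 in the mutant and 1270, 1200 and 1280 in the wild type (log2 ratio 0.92 ± 0.0635, adjusted p 2.28e-10), and acox-1.1. The level of acox-1.1, the gene of the oxidase most studied in ascaroside synthesis, was 11200, 11300 and 12000 in the mutant and 8940, 8980 and 9560 in the wild type. Its ratio was 0.33 in every replicate (SD 0.00416, adjusted p 6.23e-06). That SD, between averages of 2 dye orientations, was the smallest of the 52 tested genes. Single arrays gave acox-1.1 ratios of 0.18 to 0.48, with means of 0.25 with the mutant in Cy5 and 0.41 with it in Cy3. With median centring the ratio was 0.11 (limma adjusted p 0.0912). Lower in the mutant were acox-1.5 (-0.71 ± 0.102), acox-1.3 (-0.63 ± 0.108) and acox-1.2 (-0.36 ± 0.0933), with adjusted p of 7.67e-06 or below, and the levels of all 3 were without overlap. The genes acox-1.1, acox-1.2 and acox-1.3 have consecutive clone numbers, and the ratio of acox-1.1 was above that of acox-1.3 by 1.07, 0.86 and 0.96 log2 units. These paralogues could share hybridisation, which could not be checked without probe sequences. The ratio of acox-3 was 0.00 ± 0.171 (adjusted p 0.943).

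The enzymes maoc-1, dhs-28 and daf-22 act one after another in the peroxisome, as hydratase, dehydrogenase and thiolase, and worms lacking dhs-28 or daf-22 do not make the short-chain ascarosides. The level of maoc-1 was 15200, 17800 and 17500 in the mutant and 12500, 13700 and 11400 in the wild type, a log2 ratio of 0.43 ± 0.173 (adjusted p 1.16e-05). That of dhs-28 was 908, 654 and 755 in the mutant and 878, 646 and 711 in the wild type, a ratio of 0.05 ± 0.0350 (adjusted p 0.284). That of daf-22 was 31100, 33400 and 32800 in the mutant and 22600, 22900 and 25000 in the wild type, a ratio of 0.47 ± 0.0758 (adjusted p 3.86e-07). Thus maoc-1 and daf-22 were higher without overlap and by less than 2-fold, and the levels of dhs-28 overlapped.

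Of the 61 probes, 9 were not tested, and 5 of the 57 genes had no tested probe. A probe of acox-1.3, a probe of acs-24 and the probe of acs-25 were not well above background in at least 4 of the 6 arrays in either genotype. Outlier marks left a replicate without a value for a probe each of acdh-1 and acdh-2 and for the probes of acdh-8, acdh-11, acs-5 and acs-10. For acs-10, 2 of 12 spots carried a mark, on the local background, and replicates 2 and 3 had 3890 and 3810 in the mutant and 1920 and 1540 in the wild type. With marked spots kept, acs-10 was at 1.14 ± 0.142 (adjusted p 6.70e-10), acs-5 at 0.48 ± 0.144, acdh-8 at 0.44 ± 0.0869 and acdh-11 at 0.23 ± 0.104. Of these, acs-10 passed the call rule.

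All 10 called genes had the same sign on 6 of 6 arrays and were well above background on 6 arrays in both genotypes. The same sign on 6 arrays was also found for 39 of the 52 tested genes and 12284 of the 16272 tested probes. None of the probes of these families had a saturated spot. The fold reached 2 in each of the 3 replicates for 8 of the called genes, the exceptions being acs-3 and acs-17. For a single gene, the exact two-sided sign-flip permutation test over 3 replicates cannot give a p under 0.25. Across the 52 tested genes, the mean ratio with the mutant in Cy5 and that with the mutant in Cy3 had a Pearson's r of 0.971, over genes that share the same 6 arrays. The median absolute difference was 0.16 log2 units, and 10 genes had opposite signs in the 2 orientations. The largest difference was that of acox-3, at -0.32 with the mutant in Cy5 and 0.33 with the mutant in Cy3.

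**Figure D4:**
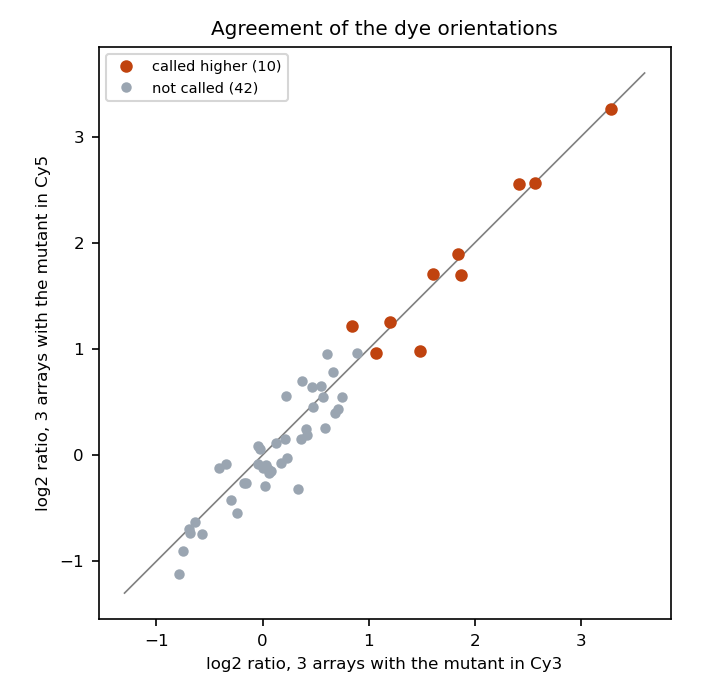
Mean log2 ratio of mutant over wild type from the 3 arrays with the mutant in Cy5 (vertical axis) and the 3 arrays with the mutant in Cy3 (horizontal axis), 1 point per tested gene, with the line of equality. The points farthest from the line are acox-3, at -0.32 and 0.33, and the called genes acs-16, at 0.98 and 1.48, and acs-3, at 1.22 and 0.84.

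Other genes of fatty acid breakdown were examined in 4 lists, with 40 tested probes in all. There were 4 calls among the 40, against 16.3% of all tested probes, 2 higher and 2 lower, and the median log2 ratio was 0.16. Higher were hphd-1 and pmp-4. The gene hphd-1 encodes the 3-hydroxypropionate dehydrogenase of the propionate shunt, and its level was 35000, 35400 and 29200 in the mutant and 10700, 9540 and 9600 in the wild type (log2 ratio 1.73 ± 0.146, adjusted p 2.79e-12). The gene pmp-4 encodes a peroxisomal membrane transporter of the ABC class, and its level was 7610, 6570 and 7800 in the mutant and 3620, 2990 and 3730 in the wild type (1.09 ± 0.0392, adjusted p 3.05e-11). Neither pair of groups overlapped.

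Lower in the mutant were ech-1.1 and nhr-13. The gene ech-1.1 encodes the alpha subunit of the mitochondrial trifunctional protein, which joins hydration to the next oxidation, and its level was 310, 270 and 290 in the mutant and 645, 552 and 596 in the wild type (log2 ratio -1.04 ± 0.0136, adjusted p 3.91e-11). The gene nhr-13 encodes a nuclear receptor that can pair with NHR-49, and its level was 483, 571 and 487 in the mutant and 1080, 1220 and 1070 in the wild type (-1.13 ± 0.0285, adjusted p 1.97e-11). Groups did not overlap in either gene. The probe of ech-1.2, in the same list as ech-1.1, was left untested by outlier marks. It read 943 and 1880 in mutant replicates 2 and 3 and 925 and 1490 in the wild type. With marked spots kept, ech-1.2 was at 0.33 ± 0.167 (limma adjusted p 1.54e-04), opposite in sign to ech-1.1. Of these 4 calls, 3 depended on the processing: pmp-4 was at 0.79 with median centring, ech-1.1 at -0.88 there, and nhr-13 at -0.93 with the arrays that had the mutant in Cy3.

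By list, the trifunctional and thiolase genes had 1 lower call among 7 tested probes and a median of 0.23, and the genes of branched-chain and propionyl-CoA breakdown 1 higher call among 9 and a median of 0.18. The peroxisome import and membrane genes had 1 higher call among 10 and a median of 0.12, and the lipolysis genes and regulators 1 lower call among 14 and a median of 0.02. For comparison, 9.10% of all tested probes were called higher and 7.17% lower. The regulator nhr-49, whose protein activates acs-2, was at 9770, 7340 and 8510 in the mutant and 6630, 5730 and 6310 in the wild type. These levels did not overlap, and the log2 ratio was 0.45 ± 0.103 (adjusted p 1.09e-06), under 2-fold.

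The genes of propionate breakdown were set side by side by role after their values had been seen, so the grouping is a description. In the order of the shunt, the ratios were 0.18 and 3.15 for the probes of acdh-1 (3.15 with marked spots kept), 1.66 for ech-6, 0.78 and 0.07 for the probes of hach-1, 1.73 for hphd-1 and 0.47 for alh-8. In the B12-dependent route, they were 0.37 for pcca-1, 0.14 for pccb-1, 0.18 for mce-1 and -0.01 for mmcm-1. The 6 tested shunt probes had a median of 0.63 with 2 calls. The 4 tested probes of the B12-dependent route had a median of 0.16 with 0 calls. Of all tested probes, 16.3% were called. In limma, 5 of the 6 shunt probes and 3 of the 4 others had an adjusted p under 0.05, all higher. Of all tested probes, 83.6% had such a p in either direction, and 42.2% had it and were higher. The nuclear receptor genes nhr-10 and nhr-68, whose proteins switch the shunt on when propionate accumulates, were at 0.70 ± 0.103 and 0.39 ± 0.0355. The probe of hach-1 at 0.07 was dim, with 93.3, 92.1 and 109 in the mutant and 97.5, 88.0 and 93.6 in the wild type, while its other probe read 14200, 14800 and 13000 in the mutant and 8330, 8390 and 7640 in the wild type.

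**Figure D5:**
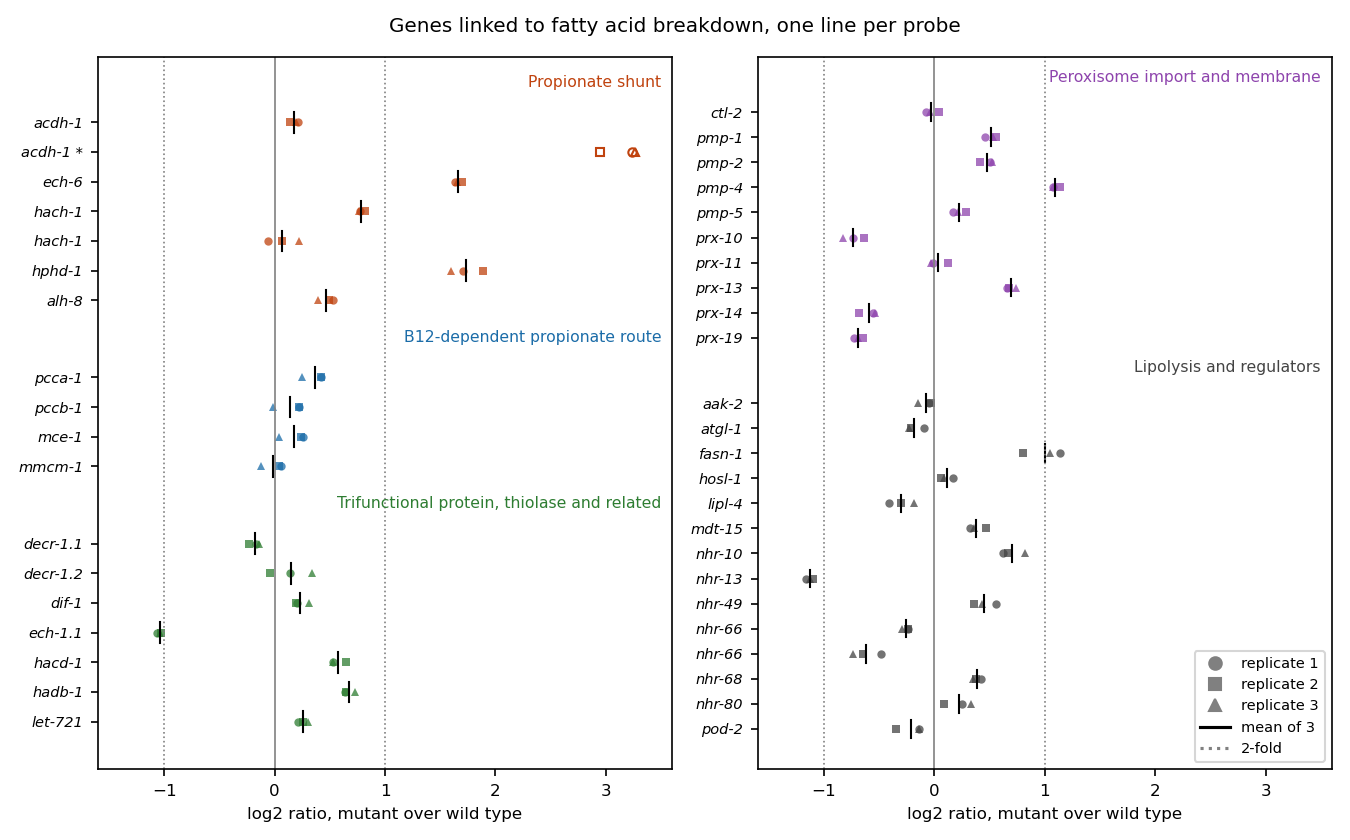
Log2 ratio of mutant over wild type (horizontal axis) of the genes linked to fatty acid breakdown, 1 line per probe, with the 3 replicates as symbols, their mean as a black bar and 2-fold as dotted lines. Open symbols (acdh-1 *) are the bright acdh-1 probe with marked spots kept, at 2.95 to 3.26, and hphd-1 at 1.73 and ech-6 at 1.66 lie past 2-fold, while the means of the B12-dependent route lie between -0.01 and 0.37.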

How the data were processed

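The deposited scanner files, which their headers say the authors read with Agilent Feature Extraction 10.5.1.1, held median pixel intensity values for every spot and for the background around it, not normalised. Other deposited columns were processed intensities, a log10 ratio of Cy5 over Cy3, and quality marks. The authors also deposited log2 ratios of Cy5 over Cy3, with the sign not turned on swapped arrays and 88.0% to 90.8% of gene probes within 0.001 of the scanner's ratio. The processed intensities and deposited log2 ratios served as alternatives.

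The analysis ran in R 4.3.3 with limma 3.58.1. There, normexp with an offset of 50 was fitted on spots without outlier marks, and loess was applied within arrays with control and marked spots at weight 0. Marked spots were then set to missing, the spots of a probe were averaged, ratios were turned to mutant over wild type, and both arrays of a replicate, which held the same RNA, were averaged. Levels are normalised intensities with the offset included, which draws ratios of dim probes towards 0. For levels alone, the mean log intensities were also quantile-normalised between arrays, a step not used for ratios and tests. A probe was tested when well above background on at least 4 of 6 arrays in 1 genotype and with a value in 3 replicates. Each log2 ratio was tested against 0 (lmFit, eBayes, two-sided). The study's methods give a 2-fold change and a p threshold for 3 replicates without naming the test. The number of arrays limits the precision.

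Genes were named through RefSeq gene names (assembly WBcel235), which matched 19057 of 19837 named probes. Probe positions and sequences were not used here. The decimal form was read for acox alone, so ech-1.1 and ech-1.2 were placed in the trifunctional list. All genes of the chosen families were accounted for; full values are given for called genes, every cpt and ech gene, acs-2, acdh-1, acox-1.1, maoc-1, dhs-28 and daf-22, and of the lists for called genes and nhr-49. Others given in full, such as acs-22, acs-12, acs-13, acdh-10, acdh-12, acdh-13, acox-1.6 and hach-1, were picked after their values were seen. The members and lists were chosen with earlier results of these data known. Summaries and figures used pandas and matplotlib.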

Additional observations from a re-analysis of the deposited data

Results flagged for a closer look

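Of 38 values examined for an array that stood apart from the other 5, 1 did so by more than Dixon's critical value for 6 arrays, while chance marks about 1 in 20. The median log2 ratio of maoc-1, dhs-28 and daf-22 was 0.11 on 1 array (replicate 1, mutant in Cy5), whereas the remaining arrays gave 0.33 to 0.46, a gap of 0.65 of the whole range.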

How the results depend on the processing

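Of the 10 genes called higher, 7 kept the call in each setting that tested them. For 31 named genes, 438 of 464 pairs of gene and setting kept the call, 17 lost it, 0 gained it and 9 changed sign. Genes outside these 31 did gain calls: acdh-13, acs-13, acs-10, decr-1.3, fasn-1, prx-5 and prx-10 under at least 1 alternative. The counts follow probes tested in the main setting, so they leave out the bright probe of acdh-1, a gene among the 31. That probe was called with outlier spots kept (3.15) and with the deposited ratios (3.56). Of the lost calls, 6 were acs-17, 4 acs-3, 1 acs-16, 4 ech-1.1, 1 nhr-13 and 1 pmp-4. The median of the fatty acid genes stayed above 0. It was 0.10 with median centring, 0.15 with no filter on dim probes, 0.17 with no background subtraction, processed scanner signals or the mutant in Cy5 alone, and 0.18 with ech-1.1 and ech-1.2 counted. It was 0.19 with normexp on all spots, 0.25 with both channels above background on all arrays, 0.27 with an offset of 16, 0.28 with the deposited ratios and with the mutant in Cy3 alone, and 0.33 with outlier spots kept. Leaving out a replicate gave 0.20 to 0.25, 0 to 1 genes called lower (acdh-13 without replicate 1) and 4 to 7 calls in the pathway lists. Without replicate 2 these 7 added fasn-1, decr-1.3 and prx-5.

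The count called lower was 2 with the deposited ratios and the processed signals (acdh-13 and acs-13), and 1 with median centring (acs-13), an offset of 16 (acdh-13), the mutant in Cy5 alone (acdh-13) or ech-1.1 counted. At 1.5-fold, 21 of the 52 genes were called, 6 of them lower, with 13 of the 40 pathway probes and 5987 of all 16272 tested probes. At that fold the share of the genes was little above that of all tested probes, and the share of the pathway probes was below it. The deposited ratios gave 7 pathway calls and 4518 in all, the processed signals 4342 in all, and outlier spots kept 7 pathway calls. The ratio of ech-3 turned to -0.14 with the deposited ratios, -0.093 with the processed signals, -0.025 with the mutant in Cy3 alone, -0.0073 with no background subtraction, -0.0048 with normexp on all spots, and it was -0.0046 to 0.057 with 1 replicate left out, the lowest without replicate 2. That of ech-4 turned to -0.064 with median centring, dhs-28 to -0.069 with the mutant in Cy5 alone, and ech-8 to 0.055 with the mutant in Cy3 alone. The cause of these changes was not tested. Replicates 1 and 2 shared a slide and replicate 3 was on another; the slide as a term, added after the data were seen, changed no call among the 31 genes and added fasn-1 (1.01), for 5 pathway calls. Averaging the probes of a gene changed nothing, since no gene had 2 tested probes. Signal limits acs-25, the dim acdh-1, acs-24, acox-1.3 and hach-1 probes, and the tested probes of acs-15, acs-18 and ech-3.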
